A study of Mus musculus with 14 samples.

Results

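The genes described are 45 members of the Wnt pathway out of 21938 protein-coding genes on the assembled mouse chromosomes, and the measurement is where sites of the histone mark H3K27me3 lay on them. They comprise the 19 Wnt ligands, the 10 Frizzled (Fzd) receptors, 11 secreted antagonists, the 4 R-spondins and Axin2. They were chosen by name, but with earlier results of these data known. The mark was mapped by ChIP-seq in immortalised mouse embryo fibroblasts (iMEF). The study asked how histone marks respond when ASH2L, a subunit of the H3K4 methyltransferase complexes, is removed. This was its first H3K27me3 experiment, and the site list of a second one was not used here. The deposited list of sites combines the 12 H3K27me3 libraries, names 153983 sites by position alone, and carries no value for any library.

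All cells of the experiment shared a genetic background in which exon 4 of the endogenous Ash2l alleles had been deleted. Their proliferation depended on FKBP-HA2-ASH2L, a tagged human protein brought in with a lentivirus. Per the study's legend to its ChIP-seq figure the cells were NG3, 1 clone of this line, so the libraries do not represent separate animals. The compound dTAG-13, a PROTAC, directs the tagged protein to degradation. There were 6 groups of 2 replicates each, namely control cells without dTAG-13 and cells exposed to it for 30 min, 2 h, 4 h, 8 h or 16 h. Input chromatin was sequenced in 2 further libraries, of control and of 16 h cells. Because the list merges these libraries, control and treated cells cannot be compared with it, no replicate error can be attached to a site, and the read depth behind each site is unknown. A gene without a site is one where no site was listed, which does not show that the mark was absent.

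Wnt ligands are secreted lipid-modified proteins that bind a Frizzled receptor together with the co-receptors LRP5 or LRP6 and thereby stabilise beta-catenin, or signal without it through planar cell polarity and calcium. Secreted Frizzled-related proteins (Sfrp1, Sfrp2, Sfrp4, Sfrp5 and Frzb) and Wif1 bind the ligands themselves, whereas most Dickkopf proteins (Dkk) and sclerostin (Sost) act on the co-receptors. R-spondins act with Lgr receptors to keep Frizzled proteins at the cell surface, and Axin2 is both a target of beta-catenin and a part of the complex that destroys it. H3K27me3 is placed by Polycomb repressive complex 2, and wide domains of it are known from silent developmental genes, many of them in signalling pathways.

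A site was found within 1 kb of an annotated start site in 34 of the 45 genes, or 75.6% (95% Wilson interval 61.3 to 85.8%), and in 31.5% of all protein-coding genes. The stretch of 1 kb either side of every annotated start of a gene is called its start-site window here. Sites of at least 2 kb reached the window of 24 of the 45 genes, against 16.1% of all genes. For sites of at least 5 kb the count was 17 and the share of all genes 8.69%, and for sites of at least 10 kb the count was 11 and the share 3.82%. The window was covered from end to end in 18 of the 45 genes and in 5.44% of all genes. The intervals cover the counting of genes only, and genes that lie next to each other are not independent.

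Counts differed by role. Among the ligands 17 of 19 had a site in the window, among the antagonists 9 of 11, among the R-spondins 3 of 4 and among the receptors 4 of 10. At a width of at least 2 kb the counts were 14 ligands, 6 antagonists, 2 R-spondins and 1 receptor, and Axin2 had a site of 2930 bp. With sites closer than 5 kb joined, they were 16 ligands, 7 antagonists, 3 R-spondins and 4 receptors. As shares, genes with a site of any width were 89.5% (68.6 to 97.1%) of the ligands, 81.8% (52.3 to 94.9%) of the antagonists, 75.0% (30.1 to 95.4%) of the R-spondins and 40.0% (16.8 to 68.7%) of the receptors. The intervals of the receptors and of the R-spondins take in the 31.5% of all genes. The differences between roles were not tested. The median covered share of the window was 58.8% over the 45 genes. By role it was 75.2% for the antagonists, 61.4% for the R-spondins and 0 for the receptors. With a window of 2 kb the antagonists fell to 40.4%, below the 61.6% of the R-spondins, and the receptors stood at 10.0%. With the window of 1 kb the median ligand was wholly covered and the median of all protein-coding genes was 0.

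**Figure D1:**
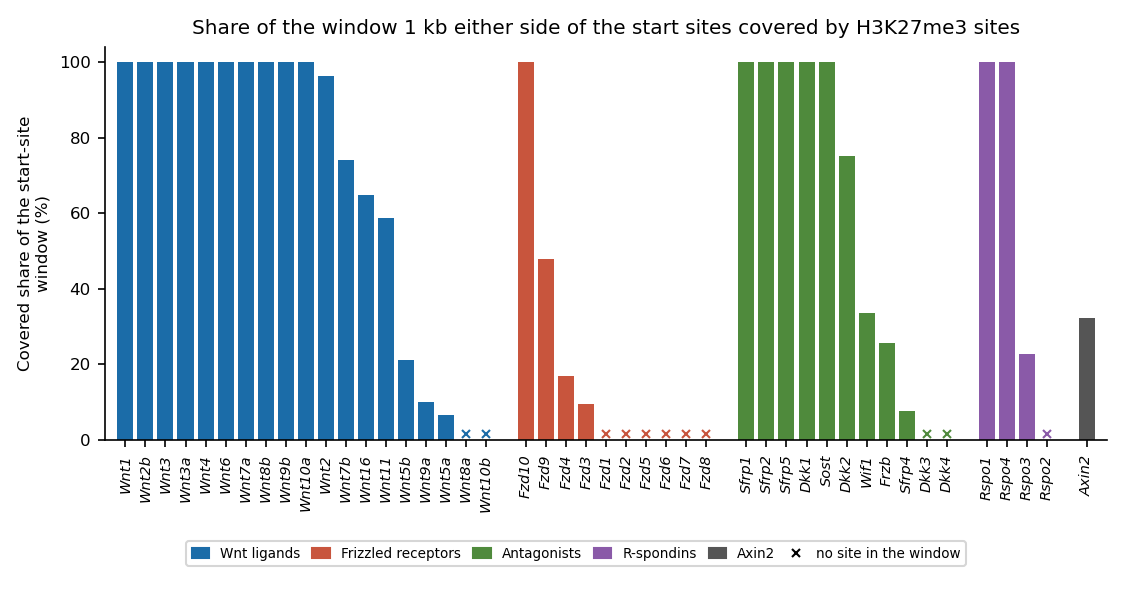
Each bar is 1 gene, grouped by role and sorted within it, and its height is the covered share of the start-site window in percent, with a cross for genes without a site there. Of the 19 ligands 10 stand at the top of the axis, whereas 6 of the 10 receptors carry a cross.

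Sites at ligand starts were also wide. The curve of genes against minimum width started at 89.5% of the ligands and 81.8% of the antagonists and was still at 57.9% of the ligands, but 27.3% of the antagonists, for sites of at least 5 kb. Sites of at least 1 kb were found at 2 of the 10 receptors and at 20.1% of all protein-coding genes. No receptor had a site of 10 kb or more, where all genes stood at 3.82%. With 10 receptors, both counts were near the share of all genes. As listed, without joining, only ligands had sites of 20 kb or more at their start, in 21.1% of them against 1.25% of all genes.

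**Figure D2:**
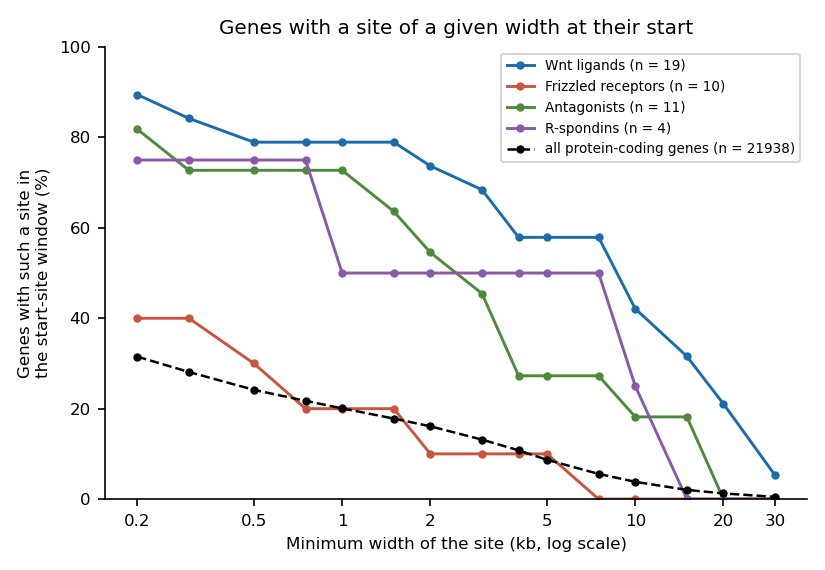
The share of genes with a site of at least the width on the x axis (kb, log scale) in the start-site window is shown in percent for each role and, dashed, for all protein-coding genes. Ligands are highest at every width drawn, and receptors are lowest among the 4 roles up to 10 kb.

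Over start-site windows and gene bodies together, 139 distinct sites touched the 45 genes, which was 0.0903% of the list. Their median width was 777 bp against 455 bp for the whole list, and 26 of them, or 18.7%, were at least 5 kb wide against 3.30% of all sites. Sites under 1 kb numbered 81, or 58.3%, against 76.7% of all sites. The sites covered 26.8% of the joined regions of the 45 genes, compared with 6.99% for all protein-coding genes and 5.93% of the assembled chromosomes. By role the covered share was 42.8% for ligands, 19.0% for antagonists, 17.1% for R-spondins, 12.8% for Axin2 and 6.18% for receptors. Counting the gene body added 3 genes to those with a site, all of them Frizzled receptors, to give 37 of 45 against 48% of all genes. The other 8 had no site in either place.

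**Figure D3:**
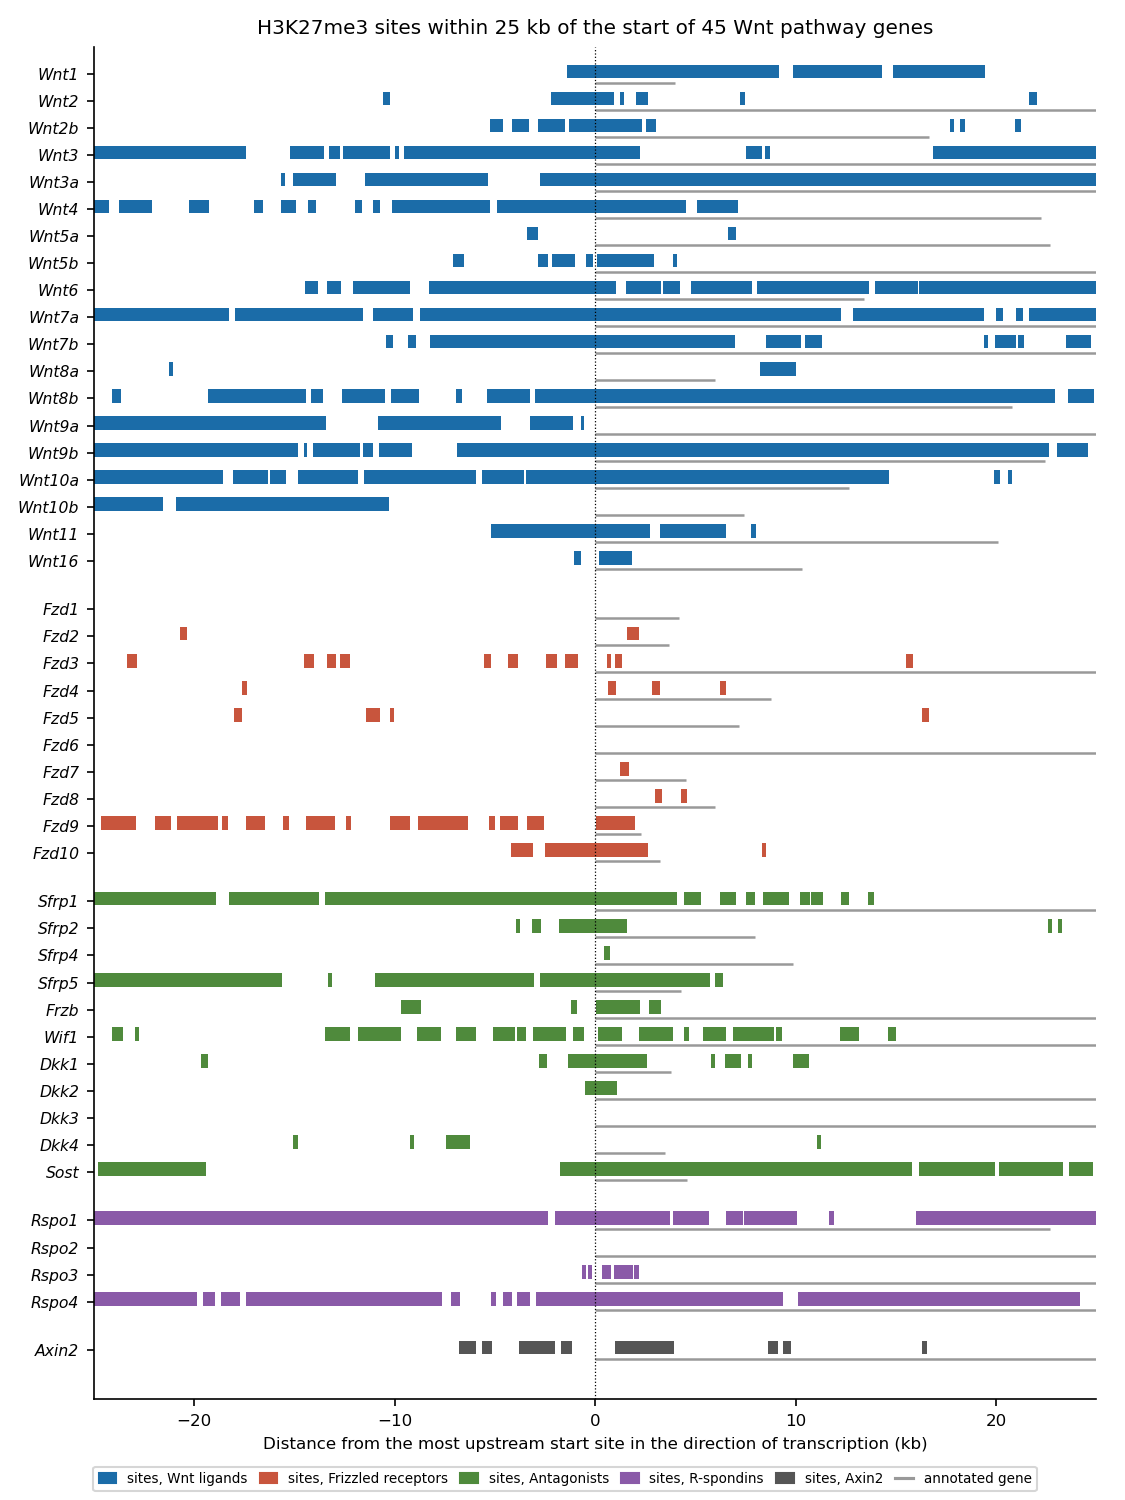
Each row is 1 gene aligned at its most upstream start site and read in the direction of transcription, with distance in kb on the x axis, coloured blocks for H3K27me3 sites and a grey line for the annotated gene. Ligands such as Wnt3a, Wnt7a and Wnt9b show long blocks across the start, most Frizzled rows are nearly empty, and Fzd1, Fzd6, Dkk3 and Rspo2 have no block within 25 kb.

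The ligands carried the widest sites. Windows were wholly covered in Wnt1, Wnt2b, Wnt3, Wnt3a, Wnt4, Wnt6, Wnt7a, Wnt8b, Wnt9b and Wnt10a, and 96.3% of the window was covered in Wnt2. The widest site of all 45 genes, 56653 bp on chromosome 11 (chr11:59236845-59293497, GRCm38), contained the whole of Wnt3a (chr11:59248033-59290752, minus strand), a ligand known for its role in the formation of posterior mesoderm. It reached from 2745 bp upstream of the start to well past the end of the gene. The next were 29504 bp over Wnt9b, a ligand of kidney tubule induction, 25908 bp over Wnt8b, which is known from the developing forebrain, and 20996 bp at Wnt7a, known for limb patterning. The first 2 of these contained their gene entirely, as did the 18117 bp site over Wnt10a, a ligand of tooth and hair development, and the 10601 bp site over Wnt1, which is required for the midbrain. None of the widest sites of any member overlapped another protein-coding gene.

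Wnt7b, a ligand of lung and placenta development, had a site of 15248 bp, and Wnt11, which acts mainly without beta-catenin, one of 7932 bp. Their windows were covered to 74.2% and 58.8%, counted over 6 and 5 annotated starts. Wnt4, known from the kidney and female reproductive tract, had 9408 bp, and Wnt6 had 9315 bp. At Wnt3 the site across the start measured 11761 bp and a wider one of 13975 bp lay in the gene body. Intermediate widths were found at Wnt2b (3630 bp), Wnt2 (3123 bp), Wnt5b (2849 bp) and Wnt16 (1618 bp).

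The other 4 ligands had little or nothing. Wnt5a, the prototype of signalling without beta-catenin and a gene long known from mesenchymal cells, has 6 annotated starts and a single site of 394 bp at one of them, 6626 bp downstream of the most upstream start, so that 6.58% of its window was covered. Wnt9a had a site of 200 bp, the smallest width in the list. Wnt8a and Wnt10b had none in window or body, and the nearest site lay 8209 bp and 10285 bp from their most upstream start.

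Several ligand genes lie side by side, and 4 such pairs stood within 100 kb of each other, none with a further protein-coding gene between them. Wnt6 and Wnt10a on chromosome 1, both transcribed in the same direction, were 6193 bp apart, and 94.1% of the stretch between them was covered. Wnt9b and Wnt3 on chromosome 11 point away from each other across 24328 bp, of which 86.9% was covered, and both windows were wholly covered. In the remaining pairs the neighbours differed. Wnt3a and Wnt9a, with 16175 bp between them, had windows that were wholly covered and covered to 9.99%, and 69.5% of the stretch between was covered. Wnt1 was wholly covered whereas Wnt10b, 11706 bp away, had no site, and 12.1% of that stretch was covered. No listed site was shared by the genes of a pair. When sites closer than 5 kb were joined, a stretch of 48739 bp reached the windows of both Wnt6 and Wnt10a. Likewise a stretch of 69233 bp reached those of Wnt9b and Wnt3, and one of 74177 bp those of Wnt3a and Wnt9a. Wnt10b still had none.

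**Figure D4:**
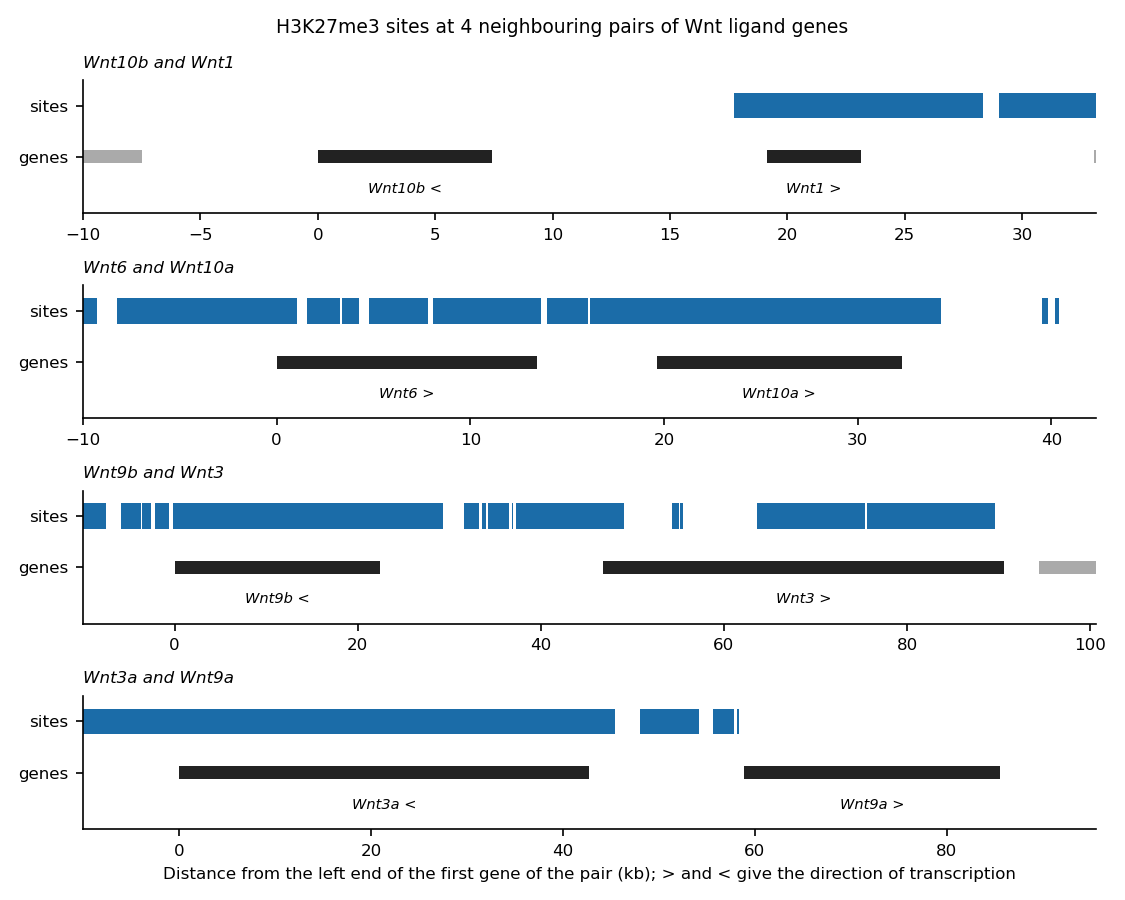
Blocks in the upper row of each panel are H3K27me3 sites and those in the lower row are genes, with the pair in black, other protein-coding genes in grey and distance in kb on the x axis. Sites run through Wnt6 and Wnt10a and through Wnt9b, but end before the start of Wnt9a and of Wnt10b.

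Wnt3a and Wnt9a differed in coverage while both starts were rich in CpG, and upstream sequence of each is shown for this reason. The 250 bases end at the most upstream start of an mRNA in GENCODE or RefSeq, which is the annotated start used above for Wnt3a and a RefSeq start 79 bp upstream of it for Wnt9a. They are printed in the direction of transcription from GRCm38.p6 with every CG in capitals, Wnt3a (chr11:59290753-59291002, minus strand) with 41 CG and inside its 56653 bp site, and Wnt9a (chr11:59306599-59306848, plus strand) with 36 CG and outside any site. As many CG as in the Wnt3a sequence were found in 1.09%, and as many as in the Wnt9a sequence in 2.58%, of the upstream 250 bases of 32851 RefSeq promoters, whose median was 6. The third sequence is the whole 200 bp site upstream of Wnt9a (chr11:59306197-59306396, plus strand), which holds 3 CG. Wnt9a was chosen for printing after its values had been seen.
Wnt3a: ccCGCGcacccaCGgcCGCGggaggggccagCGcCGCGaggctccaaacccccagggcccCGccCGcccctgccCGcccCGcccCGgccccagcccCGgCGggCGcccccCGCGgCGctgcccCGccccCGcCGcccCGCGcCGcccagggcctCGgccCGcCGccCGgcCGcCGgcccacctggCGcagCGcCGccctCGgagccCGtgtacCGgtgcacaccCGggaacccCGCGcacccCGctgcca
Wnt9a: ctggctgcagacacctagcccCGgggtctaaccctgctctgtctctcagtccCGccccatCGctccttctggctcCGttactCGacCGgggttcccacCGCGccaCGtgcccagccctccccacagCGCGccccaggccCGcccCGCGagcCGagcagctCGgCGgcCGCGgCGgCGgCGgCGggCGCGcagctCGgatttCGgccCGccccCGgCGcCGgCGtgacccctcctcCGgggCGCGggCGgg
Wnt9a site: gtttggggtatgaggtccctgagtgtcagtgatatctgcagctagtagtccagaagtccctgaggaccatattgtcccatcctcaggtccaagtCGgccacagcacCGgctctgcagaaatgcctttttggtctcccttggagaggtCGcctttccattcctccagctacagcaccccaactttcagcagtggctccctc

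Among the receptors Fzd10 had the widest site, with 5115 bp (chr5:128598358-128603472), and it covered its whole window and 80.9% of its body. Fzd10 (chr5:128600844-128604093, plus strand) consists of 1 exon. Fzd9, a receptor gene of the Williams syndrome region in humans, had a site of 1950 bp that began 43 bp downstream of the start, covered 85.0% of the body and left 47.9% of the window covered. Fzd4, the receptor of norrin in retinal vessels, and Fzd3, which acts in axon guidance, had sites of at most 398 bp and 686 bp, with 17.0% and 9.65% of the window covered.

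In Fzd2, Fzd7 and Fzd8 sites lay in the body but not in the window. They began 1566 bp, 1262 bp and 2991 bp downstream of the start, and the widest measured 606 bp, 404 bp and 350 bp. All bases of their widest sites were exonic, and each of these genes has 1 exon. Sites in the body but not in the window were found in 3 of the 45 genes and in 16.5% of all protein-coding genes.

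No site was listed in the window or body of Fzd1, Fzd5 and Fzd6. The nearest lay 25491 bp, 10018 bp and 190527 bp from the most upstream start. At Fzd6 (chr15:39006034-39038188, plus strand) all 33155 bp of window and body also occur, at an identity of at least 99%, on a sequence of GRCm38.p6 outside the chromosomes. The list holds 105 sites on sequences outside the chromosomes, and whether the sequence with this copy was in the reference to which reads were aligned was not tested. What part the repeat had in the absence of a site at Fzd6 was not tested. None of the other 44 genes had any of its window repeated in this way. Without Fzd6, the receptors with a site were 4 of 9.

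The upstream sequence of Fzd10 (chr5:128600594-128600843, GRCm38.p6, plus strand) is shown because it was the 1 Frizzled start inside a site of over 2 kb, with its 12 CG in capitals. As many CG were found in 33.5% of the RefSeq promoters.
Fzd10: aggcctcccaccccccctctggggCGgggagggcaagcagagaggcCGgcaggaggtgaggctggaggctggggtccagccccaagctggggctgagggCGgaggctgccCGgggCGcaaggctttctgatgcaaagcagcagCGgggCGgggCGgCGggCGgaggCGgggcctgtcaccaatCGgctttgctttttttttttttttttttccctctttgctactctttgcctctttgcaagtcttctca

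The antagonists ranged from genes wholly inside a site to genes without any. Of those that bind the ligands, Sfrp1 had a site of 17585 bp that reached 13496 bp upstream of its start, and 12 further sites lay in its region. The sites at Sfrp5 (8445 bp) and Sfrp2 (3365 bp) covered their windows entirely, and that of Sfrp5 its whole gene. Sfrp4 had a single site of 284 bp, with 7.78% of the window covered. Frzb, first known from cartilage, had 2198 bp and 25.8% of the window covered.

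Wif1, a ligand-binding inhibitor, had the most sites of any member, 27 over its region, the widest of 2780 bp in the body and of 1193 bp at the start. Together they covered 40.9% of the region and 33.7% of the window. They were short compared with the sites at the start of Sfrp1, Sfrp5 and Sost.

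Among the antagonists of the co-receptors, Sost, the osteocyte inhibitor of bone formation, lay within a site of 17569 bp (chr11:101951192-101968760) that covered all of the gene. Dkk1, a head inducer, had a site of 3941 bp and a wholly covered window, and Dkk2 a site of 1618 bp over 75.2% of the window. Dkk4 and Dkk3 had no site, and the nearest were 6267 bp and 167989 bp from the start. Dkk3 differs from its relatives in that it is not regarded as a clear inhibitor of the co-receptors.

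Of the R-spondins, Rspo4, the R-spondin of nail development, had 12328 bp at the start and 14027 bp in the body, and 94.4% of its region was covered. Rspo1, known from ovary development, had sites of up to 9127 bp, a wholly covered window and 71.9% of its region covered. At Rspo3, a gene of vascular and placental development, 4 short sites lay in the window, the widest of 920 bp, and covered 22.7% of it.

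Rspo2, which acts in limb and lung development and which the study used as an example locus, had no site (chr15:43020794-43170826, minus strand). Its nearest site was 351898 bp away, the greatest distance among the 45 genes. Start sites at least 100 kb from any site were found in 3 of the 45 genes, namely Rspo2, Fzd6 and Dkk3, and in 8.28% of all protein-coding genes. A stretch of 6691 bp within Rspo2, or 4.43% of its region, was repeated outside the chromosomes, and none of its window was.

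The upstream sequence of Rspo4 (chr2:151842397-151842646, GRCm38.p6, plus strand) is shown as that of the R-spondin with the highest covered share of the window. Rspo1 tied with it and had the narrower widest site in its window. It ends at a RefSeq mRNA start that lies 280 bp upstream of the GENCODE start used above. The sequence holds 3 CG, in capitals, and lay wholly inside the site.
Rspo4: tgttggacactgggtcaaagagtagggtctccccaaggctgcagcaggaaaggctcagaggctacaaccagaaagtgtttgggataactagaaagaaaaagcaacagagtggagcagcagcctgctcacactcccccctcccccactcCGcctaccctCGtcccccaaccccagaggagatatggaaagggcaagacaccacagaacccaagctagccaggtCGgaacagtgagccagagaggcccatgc

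Axin2, the feedback gene that is widely used as a readout of beta-catenin, had a site of 2930 bp that began 986 bp downstream of its most upstream start (chr11:108921335-108924264). It has 7 annotated starts, and 32.2% of the window was covered. A further 3 sites in the body were 249 to 474 bp wide.

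Whether the start itself was covered was read at the most upstream start of each gene. It lay inside a site in 22 of the 45 genes and in 16.9% of all protein-coding genes. By role these were 13 ligands, 6 antagonists, 2 R-spondins and Fzd10. In 11 genes a site came within 1 kb but left the start itself uncovered, which was 33.3% of the 33 genes with a site this close, and 33.1% among all genes. Sites on both sides of an uncovered start were found in 6 of the 45 genes, or 13.3%, against 1.54% of all genes. As a share of genes with a nearby site and an uncovered start this was 54.5% of the 11, against 18.3% of all such genes. The uncovered stretch measured 231 bp at Wnt5b, 482 bp at Rspo3, 695 bp at Wif1, 927 bp at Wnt16, 969 bp at Frzb and 1427 bp at Fzd3. In 4 genes, Fzd4, Fzd9, Sfrp4 and Axin2, the site lay downstream only (4.11% of all genes), and in Wnt9a upstream only.

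CpG-rich starts were frequent among the 45 genes. The criterion was a GC content of at least 50% and an observed to expected CpG ratio of at least 0.6 in the 500 bp on each side of the most upstream start, which held for 32 of the 45 and for 44.4% of all protein-coding genes. A site was found in 24 of these 32, against 25.5% of all CpG-rich genes, and a site of at least 2 kb in 17, against 14.3%. Among the 13 genes whose start was not CpG-rich, 10 had a site, against 36.3%. Sites of at least 10 kb were found in 6 of these 13 (3.41% of such genes overall) and in 5 of the 32 (4.33%).

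All 10 receptors had CpG-rich starts, so the roles could be set side by side within this class. There, 12 of 13 ligands, 5 of 5 antagonists and 2 of 3 R-spondins had a site, compared with the 4 of 10 receptors. At a width of at least 2 kb the counts were 10, 4, 1 and 1. The receptors, at 10.0%, were near the 14.3% of all CpG-rich genes at this width. The median ratio of observed to expected CpG was 0.826 over the 10 receptors and 0.753 over the 13 CpG-rich ligands.

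**Figure D5:**
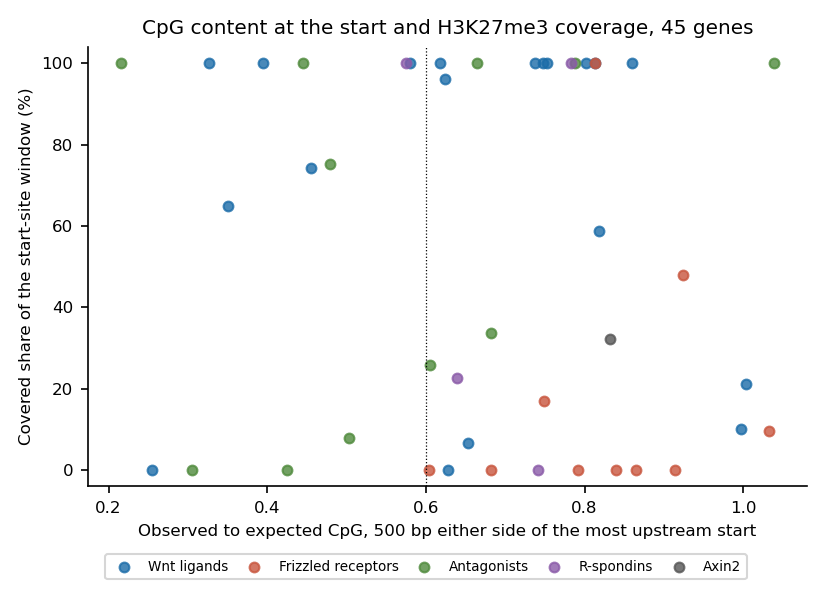
Each point is 1 gene, with the ratio of observed to expected CpG around its start on the x axis and the covered share of the start-site window in percent on the y axis, coloured by role, and the dotted line marks 0.6. Wholly covered windows occur on both sides of the line, and all 10 receptors lie to its right.

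Sites at the 45 genes had 51.8% G and C and 20.3 CpG per kb, against 48.6% and 13.7 CpG per kb for all sites on the assembled chromosomes. The difference varied with width. It was 19.0 against 16.0 CpG per kb for sites of at least 5 kb, and 20.6 against 11.9 for sites under 1 kb.

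The lists of other pathway genes give the setting. Of 67 other Wnt pathway genes, 33 had a site in the window (49.3%, against 31.5% of all protein-coding genes), 20 had one of at least 2 kb (29.9% against 16.1%) and 10 were wholly covered (14.9% against 5.44%). The latter were Cdx2 (26548 bp), T or brachyury (12796 bp), Sp5 (9257 bp) and Sp8 (6457 bp) among target genes, Draxin (15635 bp) among secreted modulators, Notum (11670 bp), an enzyme that removes the lipid of Wnt ligands, Kremen2 (11023 bp), a receptor of Dkk proteins, Nkd2 (9993 bp) and Dact2 (4541 bp), which bind Dishevelled, and Pygo1 (6798 bp), a beta-catenin cofactor. By role, sites in the window were found in 3 of 8 co-receptors and other receptors, 5 of 8 genes of ligand secretion and receptor control, 7 of 17 cytoplasmic components, 4 of 8 nuclear factors, 3 of 9 planar cell polarity genes, 6 of 10 other modulators and 5 of 7 further targets. The shares for co-receptors (37.5%), cytoplasmic components (41.2%) and planar cell polarity genes (33.3%) lay near the 31.5% of all genes. Of 15 fibroblast marker genes 5 had a site in the window, or 33.3%, which is also near that share. None had a site of at least 2 kb, where all genes stood at 16.1%, and the widest was 534 bp.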

How the data were processed

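ChIP-seq of H3K27me3 was measured in 12 libraries of NG3 iMEF cells, with 2 input libraries. The authors used Trim Galore for trimming, BWA for alignment to mm10 (GRCm38.p6), SAMtools for filtering, Picard for merging replicates and MACS2 (so named in the processing notes) for broad peaks, and brought libraries to the lowest coverage. The versions, the threshold and the rule for combining peaks are not given in the sources used here. The deposited file holds positions only, without counts, scores or calls per library. Starts are 0-based in the file and 1-based here.

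From there, sites were intersected with GENCODE M21 genes on GRCm38.p6, an earlier release than the study's. Any overlap with the window of 1 kb either side of all starts, or with the gene body, counted. Covered shares were computed on bases. Sequences upstream of the most upstream GENCODE or RefSeq mRNA start came from GRCm38.p6, and promoter CG counts from RefSeq promoters on the table's build, GRCm38.p6. A promoter entry was found for 31 of the 45 genes. Rspo2 was to be printed too but had no entry. Repeats outside the chromosomes were sought with minimap2 2.31, keeping alignments of at least 500 bp and 99% identity. Python 3.11.15, pysam 0.24.0 and statsmodels 0.14.6 were used, and the interval functions were tested on simulated data. No test between groups was possible, and intervals are 95% Wilson intervals.

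The genes and lists were chosen with earlier results of these data known. Named genes were Rspo2, Axin2, in each role the 3 with the highest covered share (ties all named) and the 3 with the widest site, every gene without a site or with sites in the body only, pairs within 100 kb and, of the other pathway genes, the 5 with the highest covered share (ties all named). Others are named to account for every member. Alternatives were joined sites, a minimum site width, other windows and other sets of starts, and, after the data were seen, leaving out Fzd6.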

Additional observations from a re-analysis of the deposited data

How the results depend on the processing

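No paired analysis was possible because the positions used here were merged over the libraries, which also kept single replicates from being left out. Under 8 other settings, and with Fzd6 left out, 79 of 81 recomputed values stayed within 1.5 times the reported value. The other 2 came from the window of 2 kb, in which the median covered share was 40.4% for the antagonists, reported as 75.2%, and 10.0% for the receptors, reported as 0, and the cause was not tested. Some of the 81 could not move. The count with a site of at least 2 kb is fixed under a smaller minimum width. Leaving out Fzd6, which had no site, cannot change a count, and a wholly covered median cannot rise. Over all settings the median ran from 40.4% to wholly covered for the antagonists, from 50.0 to 72.7% for the R-spondins and from 85.6% to wholly covered for the ligands. Genes with a site in the window ranged from 28 to 36, those with a site of at least 2 kb from 24 to 31 and those with a site in window or body from 28 to 37. Over the 45 genes the median covered share of the window ranged from 41.9 to 74.2%, and the covered share of the joined regions from 24.1 to 33.2%. Receptors with a site of at least 2 kb rose from 1 to 4, and ligands from 14 to 16, when sites closer than 5 kb were joined. Receptors with any site were 6 with a window of 2 kb and 2 with sites of at least 1 kb. The rule by which the authors combined peaks is unknown, so site widths hold for this list, and depth limits what a missing site can show.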
